A study of Mus musculus with 6 samples.

Results

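The 10 genes described here are transcribed in the growing mouse oocyte and were followed in the blastocyst: Zp1, Zp2, Zp3, Gdf9, Bmp15, Nlrp5, Ooep, Padi6, Zar1 and Btg4. They were chosen by gene symbol, as probes to which the array's annotation gives a single symbol. All 10 were on the array, through 12 probes, among 8973 named genes and 18606 rows in all. Gdf9 and Bmp15 had 2 probes each and the others 1.

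Each array compared female with male whole embryos at E3.5. Embryos came from B6C3F1 mothers, 8 weeks old, that were given 5 IU of pregnant mare serum gonadotropin and, 48 h later, 5 IU of human chorionic gonadotropin and mated with males named XGFPY. The labels call the pools sex-separated and name no method for it. No other treatment was given. Embryos were flushed from the oviduct when they had 4 cells, 55 h after the later hormone, and then spent 38 h in kSOM, a culture medium. Each RNA was a pool of more than 200 embryos of 1 sex, with yeast tRNA as carrier. There were 3 independent preparations, and the female and male RNA of each were hybridised together on 2 arrays with the dyes exchanged. This gave 3 arrays with female RNA in Cy5 and 3 with female RNA in Cy3.

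In the oocyte these genes serve different tasks. The zona pellucida proteins form the extracellular coat that sperm bind and that surrounds the embryo until it hatches. GDF9 and BMP15 are TGF-beta family ligands that the oocyte sends to the surrounding granulosa and cumulus cells. NLRP5 and OOEP belong to the subcortical maternal complex, a protein assembly under the egg's membrane that early cleavage needs, and PADI6 is needed for the egg's cytoplasmic lattices. ZAR1 binds maternal mRNAs, and BTG4 brings the CCR4-NOT deadenylase to them so that they are degraded as the egg matures. Most maternal mRNA is lost around the 2-cell stage, when the embryo's own genome becomes active.

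The values are ratios within an array, so they give no level. Neither an oocyte nor an earlier stage was among the samples, and signal intensities were not analysed here. Whether the 10 transcripts persist to the blastocyst was therefore not measured, and the ratio of a transcript that is absent from both sexes would lie near 0 as well. For the same reason the marker genes of trophectoderm and inner cell mass give no check of the stage. Of the 72 deposited values of the member probes, 0 were exact zeros and 0 lay at the table's limits, against 2.11% and 0.581% of all values. In whole embryos, fewer cells of a type and less RNA per cell cannot be told apart.

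All ratios are given as log2 of female over male and read the deposited values as log10 of Cy5 over Cy3. Xist, the RNA of the inactive X, stood at 2.25 and 2.09 in preparations 1 and 2 but at -1.55 in the preparation labelled 3. The Y-linked Eif2s3y ran the other way, at -1.75, -1.76 and 1.93. Read this way, the preparation labelled 3 goes against its labels on these 2 genes, on both of its arrays. The direction of the ratio was taken from these genes in preparations 1 and 2, so the match of those with their labels is no check. The values show that the preparation labelled 3 opposes the other 2. Kdm5d, also Y-linked, did not separate the sexes in any preparation (0.026, -0.13 and 0.069) and gives no check. Results are given as labelled and, beside them, with that preparation turned in sign. Where a gene changes sign in the preparation labelled 3, as Xist and Eif2s3y do, its values partly cancel in the mean as labelled. Of the members' means, those of Zp1, Zp3, Nlrp5, Ooep and Btg4 had the same sign in both readings.

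None of the 10 genes passed limma's adjusted test for a difference between the sexes. With the labels kept, limma called 0 of 10 (0% of all rows, Benjamini-Hochberg adjusted over 18606 rows), and 0 had an unadjusted p under 0.05, against 2.6% of rows. It again called 0 of 10 with preparation 3 turned (0% of rows), and 1 gene, Zp1, had an unadjusted p under 0.05, against 7.29% of rows. No row was called in either reading, so Xist and Eif2s3y did not pass this test either. The lack of a call therefore does not show that a gene is alike in both sexes. As labelled, 5 means were positive and 5 negative, from -0.13 (Btg4) to 0.16 (Zp2), with a median of -0.0015 against 0.0062 over all rows. Once preparation 3 was turned 6 were positive, from -0.14 (Zp1) to 0.13 (Ooep), with a median of 0.029 against 0.0045. The median size of the ratio, sign aside, was 0.050 as labelled against 0.058 over all rows, and 0.093 against 0.070 once turned. The outermost bound of any member's 95% interval from limma was a 1.46-fold difference as labelled and a 1.43-fold one with preparation 3 turned, both at Zar1.

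**Figure D1:**
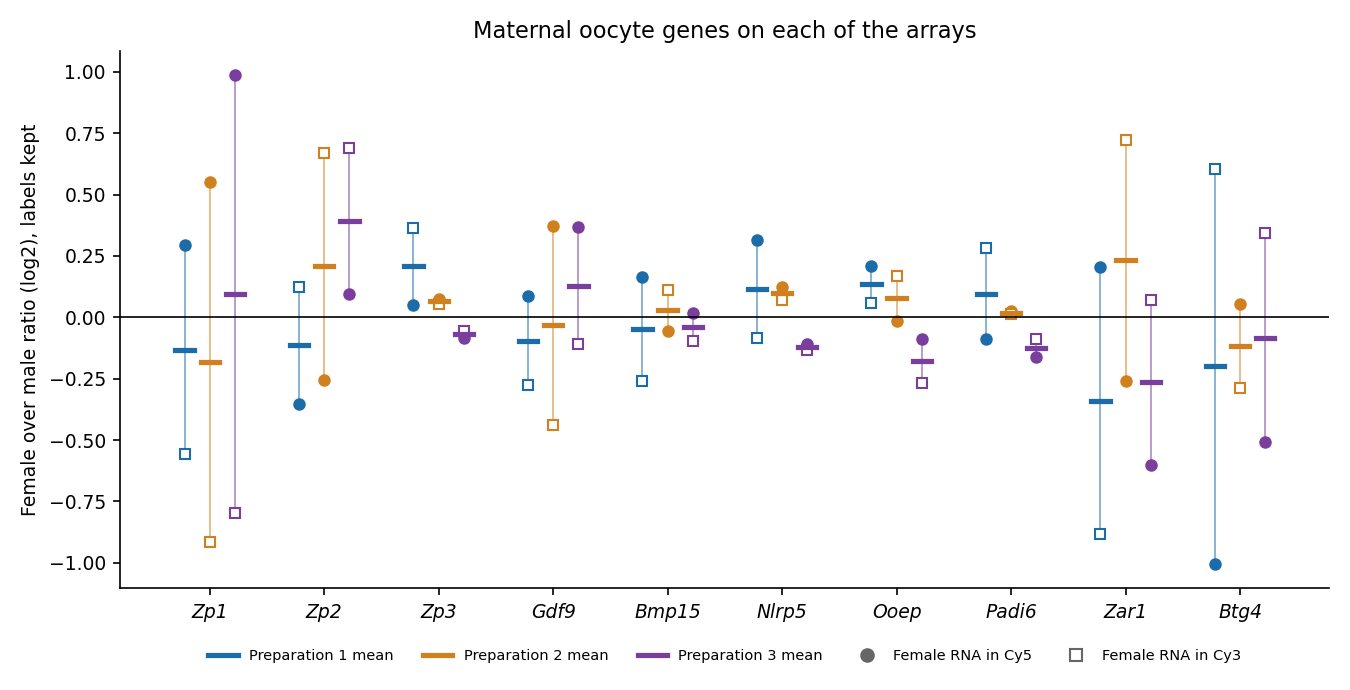
Female over male ratio (log2, labels kept) of each gene on each of the 6 arrays. Filled circles are arrays with female RNA in Cy5, open squares those with female RNA in Cy3, thin lines join the arrays of a preparation and bars are their means. The 2 arrays of a preparation lie farthest apart for Zp1, Zar1 and Btg4, up to 1.78, and closest for Zp3, Nlrp5 and Padi6 in preparations 2 and 3.

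The zona genes did not move together. Zp1, a minor zona protein that cross-links the filaments, read 0.30, 0.55 and 0.99 on the arrays with female RNA in Cy5 (preparations 1 to 3) and -0.56, -0.92 and -0.80 on those with it in Cy3. The orientations did not overlap, and the sign followed the dye and not the sex. Such a gap between orientations was found for 3 of the 10 genes (Zp1, Zp2 and Gdf9) as labelled, against 40.6% of rows. Averaged over both orientations Zp1 stood at -0.13 and -0.18 in preparations 1 and 2 and at 0.095 in the preparation labelled 3. As labelled its mean was -0.073 ± 0.15 (SD, n = 3; limma adjusted p = 1). With preparation 3 turned it was -0.14 ± 0.044 (limma unadjusted p = 0.0443, adjusted p = 0.668), a ratio of 0.91, negative in 3 of 3 preparations but on only 3 of 6 arrays.

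Zp2, whose amino-terminal part holds the site that sperm bind, varied most among the zona genes. It read -0.35, -0.25 and 0.096 with female RNA in Cy5 and 0.12, 0.67 and 0.69 with it in Cy3, again without overlap. The preparation means were -0.11, 0.21 and 0.39, so preparations 1 and 2, which had like signs on Xist and Eif2s3y, differed in sign. The mean was 0.16 ± 0.26 as labelled and -0.10 ± 0.30 with preparation 3 turned (limma adjusted p = 1 and 0.864). Its SD as labelled exceeded that of 82.2% of named genes.

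Zp3, the partner of ZP2 in the repeating unit of the zona filament, had the smallest gap between the orientations in each preparation among the zona genes. It read 0.052, 0.076 and -0.084 with female RNA in Cy5, and 0.37, 0.056 and -0.055 in the other orientation. Both arrays of each preparation had 1 sign, positive in preparations 1 and 2 and negative in the preparation labelled 3. The mean was 0.068 ± 0.14 as labelled and 0.11 ± 0.081 with preparation 3 turned (limma adjusted p = 1 and 0.715). Zp3 was then the only member with 1 sign on all 6 arrays, against 4.4% of rows in either direction and 2.29% in the positive one; as labelled there was 0, against 1.17%.

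FIGLA, an oocyte transcription factor, acts on zona gene promoters through an E-box, the letters CANNTG. RefSeq's promoter table (GRCm38.p6) had an entry for 7 of the 10 genes, among them Zp3 and the X-linked Bmp15, whose 250 bases upstream of the start are shown because they stand for an autosomal coat gene and an X-linked ligand gene. E-boxes are in capitals. The Zp3 window is chr5:135979855-135980104 on the plus strand, and the Bmp15 window chrX:6320725-6320974 on the minus strand.
Zp3: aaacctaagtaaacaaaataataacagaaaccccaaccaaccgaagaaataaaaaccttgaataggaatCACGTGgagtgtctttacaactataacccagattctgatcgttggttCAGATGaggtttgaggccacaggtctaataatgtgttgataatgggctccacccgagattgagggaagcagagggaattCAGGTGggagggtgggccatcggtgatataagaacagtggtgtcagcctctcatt
Bmp15: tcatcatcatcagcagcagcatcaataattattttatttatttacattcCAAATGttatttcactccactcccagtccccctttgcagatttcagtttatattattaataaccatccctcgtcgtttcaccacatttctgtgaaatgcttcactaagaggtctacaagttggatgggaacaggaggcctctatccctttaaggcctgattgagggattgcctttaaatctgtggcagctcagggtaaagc
The Zp3 window held 3 E-boxes, at -181 (CACGTG), -134 (CAGATG) and -55 (CAGGTG) from the start, and the Bmp15 window 1, at -201 (CAAATG). All 8 windows of the 7 genes (Nlrp5 had 2) held at least 1, as did 66.2% of all 32851 windows of that length, searched on both strands. Letters bound by NOBOX, another oocyte factor, were rarer: TAATTG stood in 1 of the 8 windows (Ooep) against 7.2% of all, and TAATTA in 2 (Nlrp5 and Bmp15) against 4.8%. These are matches of letters, and nothing in the array values bears on whether a factor is bound.

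As labelled, the means of the oocyte ligands lay at or near 0, with preparations of opposite sign behind each. Gdf9 read 0.085, 0.37 and 0.37 with female RNA in Cy5 and -0.28, -0.44 and -0.11 with it in Cy3, so the sign of the mean of its 2 probes followed the dye. Neither probe did so alone: Cy5 over Cy3 was -0.25 for one of them in preparation 1 and -0.023 for the other in the preparation labelled 3, each on 1 array. Its preparation means were -0.095, -0.033 and 0.13. The mean was 0.00 ± 0.12 as labelled and -0.086 ± 0.048 with preparation 3 turned (limma adjusted p = 1 and 0.72). The 2 probes of Gdf9 did not track each other. In preparation 2 one stood at 0.15 and the other at -0.21, and in the preparation labelled 3 at -0.021 and 0.28.

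Bmp15 read 0.16, -0.057 and 0.019 with female RNA in Cy5 and -0.26, 0.11 and -0.096 with it in Cy3, with overlap between the orientations. Its preparation means, -0.047, 0.028 and -0.038, were the closest together of the 10 genes as labelled. The mean was -0.019 ± 0.041 as labelled (95% interval -0.17 to 0.13) and 0.0065 ± 0.046 with preparation 3 turned (-0.12 to 0.14; limma adjusted p = 1 and 0.98). In fold terms the turned interval ran from 0.92 to 1.1. Its probes had means of -0.052 ± 0.081 and 0.014 ± 0.015 as labelled.

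Bmp15 was the only X-linked gene of the set, and female blastocysts carry 2 X chromosomes. Of 312 X-linked genes, 223 (71.5%) had a higher ratio than Bmp15 with preparation 3 turned, where their median was 0.081 and their quartiles -0.0082 and 0.26. As labelled, 235 (75.3%) lay above it, with a median of 0.035. Without the preparation labelled 3 it was 230 (73.7%), with Bmp15 at -0.0093. In each reading Bmp15 lay between the lower quartile and the median or just below that quartile, and whether its RNA was above background was not measured.

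**Figure D2:**
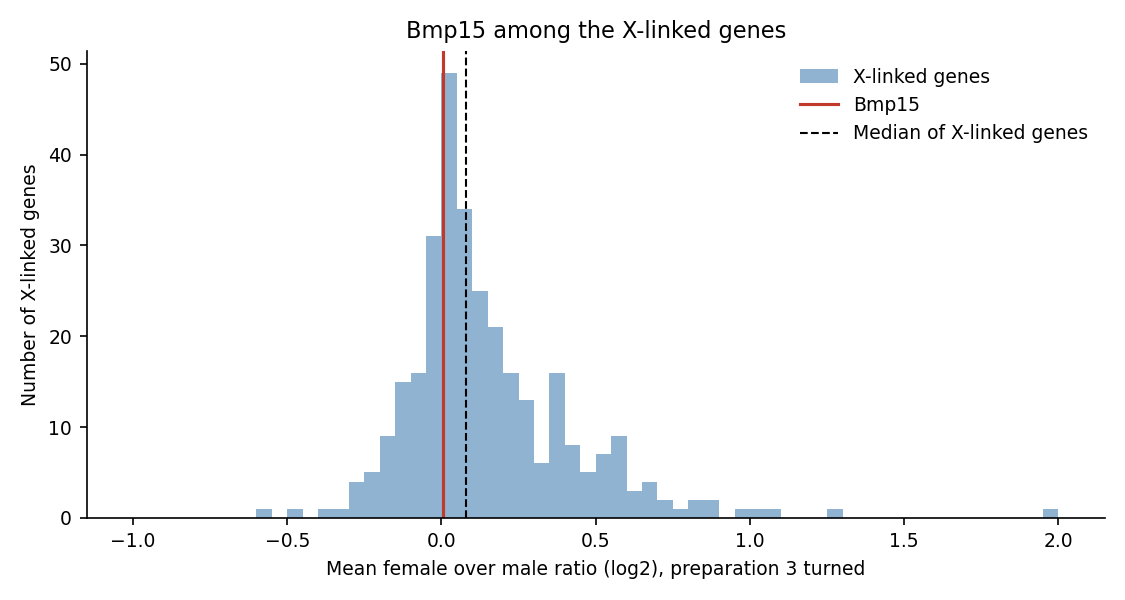
Histogram of the mean female over male ratio (log2, preparation 3 turned) of the 312 X-linked genes. The solid line marks Bmp15 at 0.0065 and the dashed line the median of 0.081.

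The genes of the subcortical complex and the lattices had means between -0.0031 and 0.13 over both readings. Nlrp5, also known as Mater, read 0.32, 0.12 and -0.11 with female RNA in Cy5 and -0.084, 0.072 and -0.13 with it in Cy3. Its preparation means were 0.12, 0.098 and -0.12. The mean was 0.031 ± 0.13 as labelled. With preparation 3 turned it was 0.11 ± 0.012, a ratio of 1.08 (limma unadjusted p = 0.0569, adjusted p = 0.685), and only 1.8% of named genes had a smaller SD. That SD is over preparation means and leaves out the spread between arrays, which lay 0.4 apart in preparation 1.

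Ooep, also called Floped, read 0.21, -0.013 and -0.088 with female RNA in Cy5 and 0.059, 0.17 and -0.27 with it in Cy3. Its preparation means were 0.13, 0.077 and -0.18, and the arrays of preparation 2 differed in sign. The mean was 0.011 ± 0.17 as labelled and 0.13 ± 0.050 with preparation 3 turned (limma adjusted p = 1 and 0.685), a ratio of 1.09.

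Padi6, a member of the family of enzymes that turn arginine into citrulline, read -0.090, 0.027 and -0.16 with female RNA in Cy5 and 0.28, 0.012 and -0.087 with it in Cy3. Its preparation means were 0.096, 0.020 and -0.12. The mean was -0.0031 ± 0.11 as labelled and 0.080 ± 0.054 with preparation 3 turned (limma adjusted p = 1 and 0.729). Nlrp5, Ooep and Padi6 thus had positive means in preparations 1 and 2 and negative means in the preparation labelled 3, the signs that Xist, and also Zp3, had. On single arrays the signs differed within preparation 1 for Nlrp5 and Padi6, in opposite orientations, and within preparation 2 for Ooep. Across the 10 genes, 6 had 1 sign in all 3 preparations with preparation 3 turned, where 30.6% of rows did. Of these, 4 were positive (Zp3, Nlrp5, Ooep and Padi6), against 16.8% of rows, and 2 negative (Zp1 and Gdf9), against 13.7%. As labelled it was 1, Btg4, against 18.9% in either direction and 9.44% in its own, the negative one.

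The 6 arrays were also fitted as single observations, blocked by preparation and with a term for dye (the replicate block fit). With preparation 3 turned there, Nlrp5 (limma unadjusted p = 0.0499, adjusted p = 0.553) and Ooep (0.0361 and 0.485) had an unadjusted p under 0.05, as did 9.04% of rows. Zp1, which was under 0.05 over the 3 preparation means, was not in this fit (limma unadjusted p = 0.145, adjusted p = 0.723). That fit called 0 of the 10 genes and 0.21% of rows. The correlation that limma estimated between the arrays of a preparation was -0.15 there, and -0.029 with the labels kept. Both arrays hold the same RNA, so the fit counts repeats of 3 preparations as separate observations.

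The genes that handle maternal mRNA differed widely between the arrays of a preparation, by up to 1.09 for Zar1 and 1.61 for Btg4, against 1.78 for Zp1. Zar1 read 0.20, -0.26 and -0.60 with female RNA in Cy5 and -0.88, 0.72 and 0.070 with it in Cy3. Its preparation means, -0.34, 0.23 and -0.27, changed sign between preparations 1 and 2. The mean was -0.12 ± 0.31 as labelled and 0.052 ± 0.34 with preparation 3 turned (limma adjusted p = 1 and 0.949). Its SD exceeded that of 87.7% of named genes as labelled and of 92.1% once turned.

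Btg4 read -1.003, 0.053 and -0.51 with female RNA in Cy5 and 0.60, -0.29 and 0.34 with it in Cy3. Its preparation means were nevertheless -0.20, -0.12 and -0.083, the same sign in 3 of 3 as labelled. The mean was -0.13 ± 0.060, a ratio of 0.91 (limma unadjusted p = 0.0765, adjusted p = 1). It was -0.078 ± 0.15 with preparation 3 turned (limma adjusted p = 0.799). The arrays behind these means lay up to 1.61 apart within a preparation. In the 6-array replicate block fit with labels kept, the limma unadjusted p was 0.472. The dye term of that fit takes up the mean gap, and the change of the gap between preparations adds to the error.

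**Figure D3:**
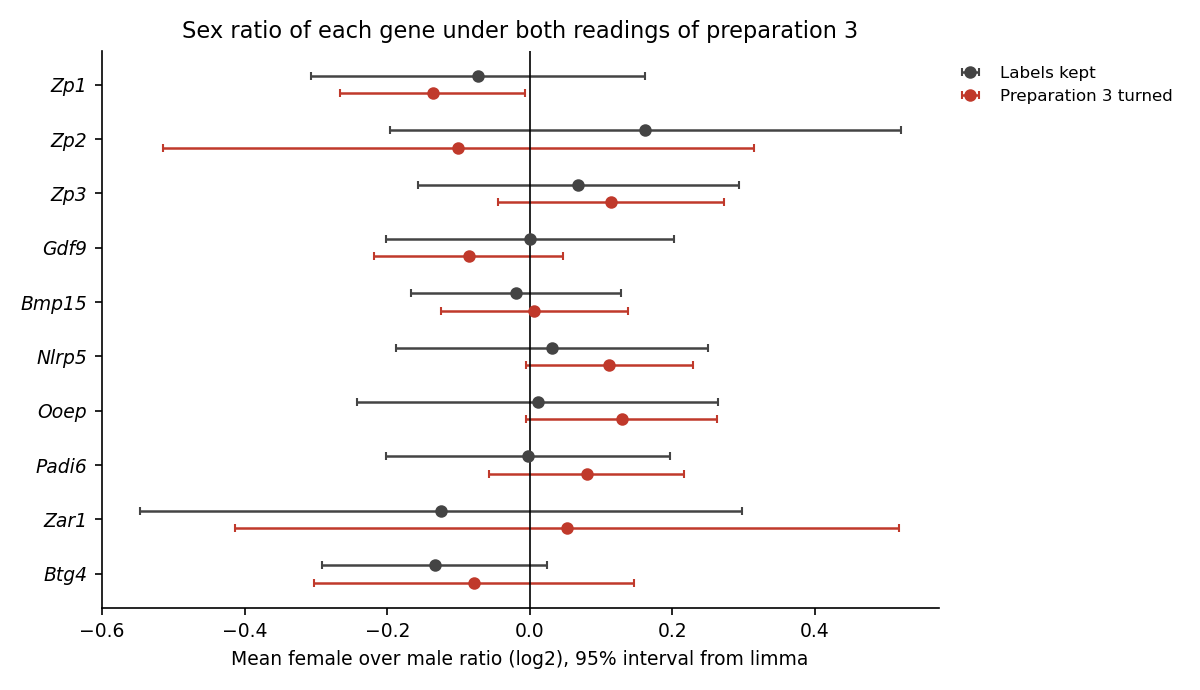
Mean female over male ratio (log2) of each gene with its 95% interval from limma, over 3 preparation means as labelled (grey) and with preparation 3 turned (red). The intervals cross 0 for all 10 genes as labelled and for all but Zp1 once preparation 3 is turned, and they are widest for Zp2 and Zar1.

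The dye effect, the mean of the raw Cy5 over Cy3 ratio in both orientations, does not depend on the sex labels. Sign aside, it was larger than the sex ratio for 8 of 10 members as labelled, against 75.9% of rows, and for 6 with preparation 3 turned, against 72%. It was 0.68 ± 0.24 for Zp1, 0.27 ± 0.12 for Gdf9 and -0.33 ± 0.12 for Zp2 (limma unadjusted p = 0.00723, 0.0227 and 0.0129; adjusted p = 0.0906, 0.136 and 0.11). limma called 0 of 10 for dye (0% of rows), and 3 had an unadjusted p under 0.05, against 26.6% of rows. Zp1 and Gdf9 read above 0 in Cy5 over Cy3 on all 6 arrays, as did 13.9% of rows. The dye effect of Zp1 was larger than that of 96.6% of named genes, sign aside.

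For Zar1 and Btg4 the dye effect itself changed from preparation to preparation. It was 0.54, -0.49 and -0.34 for Zar1 and -0.80, 0.17 and -0.43 for Btg4, and its SD was larger than that of 95.5% and 93.9% of named genes. Zp3 (-0.054 ± 0.090), Ooep (0.024 ± 0.0996), Padi6 (-0.072 ± 0.10), Bmp15 (0.061 ± 0.15) and Nlrp5 (0.079 ± 0.10) had dye effects near 0. The part of signal strength in these differences was not tested.

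**Figure D4:**
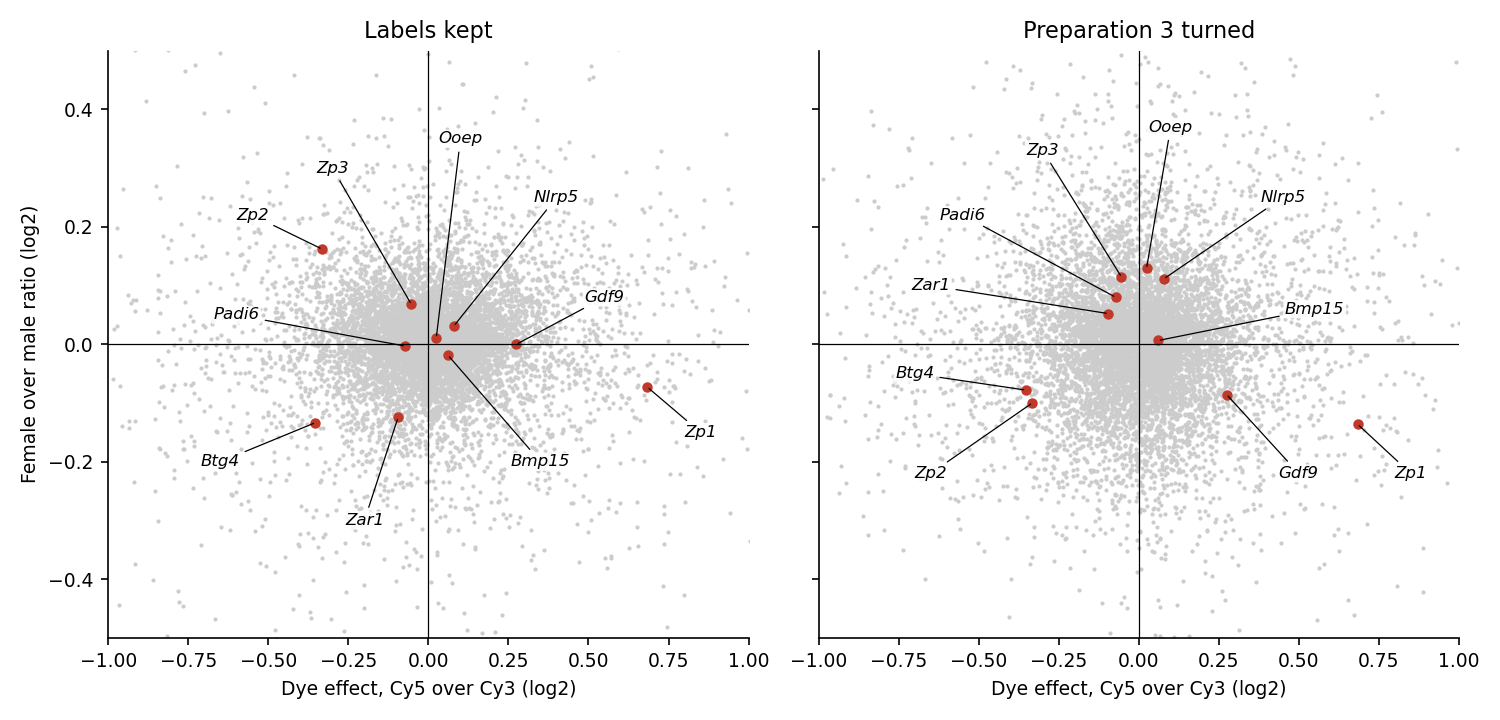
Dye effect (Cy5 over Cy3, log2) against the female over male ratio (log2) for named genes (grey) and the 10 maternal genes (red), as labelled on the left and with preparation 3 turned on the right. Zp1 lies farthest out on the dye axis, at 0.68, and members lie between -0.14 and 0.16 on the sex axis; 132 and 163 named genes lie outside the axes.

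Lists of genes related to the members also had medians near 0. Lists for each task were read from the same fits over 3 preparations, and limma called 0 genes in any of them, as labelled or turned. At an unadjusted p under 0.05 the counts, in the order in which the 5 lists follow, were 0, 0, 1, 0 and 2 as labelled and 1, 1, 1, 1 and 4 once turned, out of 10, 13, 11, 20 and 31 genes measured, against 2.6% and 7.29% of all rows. In each list the 2 genes with the smallest p as labelled are described, and the genes with a p under 0.05 once turned are named after their values were seen. Around the zona (oocyte transcription factors, proteases and gamete-contact proteins), 10 of 12 genes were measured, 6 with a positive mean as labelled and 7 once turned, with medians of 0.033 and 0.0095. As labelled the smallest p there belonged to Izumo1r, the egg's receptor for sperm IZUMO1 (-0.090 ± 0.061, and 0.0010 ± 0.13 once turned), and Nobox (0.15 ± 0.22 and 0.19 ± 0.15; limma adjusted p = 1 for both as labelled). Once turned, Oosp2 stood at -0.44 ± 0.31 (limma unadjusted p = 0.0485, adjusted p = 0.678), against -0.12 ± 0.60 as labelled.

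A list of receptors, SMADs and inhibitors drawn up around GDF9 and BMP15, not all of them used by these ligands, had 13 of 17 genes measured. Of these, 5 were positive as labelled and 6 once turned, with medians of -0.016 and -0.041. As labelled the smallest p were those of Acvr1, a type I receptor (-0.20 ± 0.16, and -0.17 ± 0.21 once turned), and Inhba, an activin subunit gene (-0.40 ± 0.39), neither past limma's test (adjusted p = 1). The mean of Inhba changed sign, to 0.092 ± 0.61, once preparation 3 was turned. Smad1, which carries the BMP15 signal to the nucleus, then stood at -0.37 ± 0.12 (limma unadjusted p = 0.00804, adjusted p = 0.61), against -0.033 ± 0.46 as labelled.

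Partners and relatives of the subcortical complex were measured for 11 of 20 genes, with 4 positive as labelled and 5 once turned and medians of -0.047 and -0.011. Khdc1b stood at -0.23 ± 0.054 as labelled (limma unadjusted p = 0.0148, adjusted p = 1) and at -0.056 ± 0.28 once turned. Padi4, a relative of Padi6 that acts on histones, stood at -0.14 ± 0.049 and -0.011 ± 0.18. Both had negative means in all 3 preparations as labelled. Zbed3, a partner in the complex, stood at -0.27 ± 0.048 once turned (limma unadjusted p = 0.00618, adjusted p = 0.6) and at -0.059 ± 0.33 as labelled.

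Of the BTG/TOB family and the CCR4-NOT decay machinery 20 of 28 genes were measured. There were 14 positive as labelled and 9 once turned, with medians of 0.022 and -0.017. Cnot9, a subunit of the complex, stood at 0.50 ± 0.47 as labelled, with 1.04 in the preparation labelled 3, and at -0.19 ± 0.74 once turned. The decapping enzyme Dcp2 stood at 0.18 ± 0.16 in both readings (limma adjusted p = 1 for both genes as labelled). Lsm14b, an RNA-binding protein gene, stood at -0.27 ± 0.036 once turned (limma unadjusted p = 0.00532, adjusted p = 0.6) and at -0.11 ± 0.30 as labelled.

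Among 31 of 52 other oocyte and egg transcripts, 13 were positive as labelled and 12 once turned, with medians of -0.0065 and -0.026. Fbxw14, an F-box gene, stood at -0.36 ± 0.18 and Rfpl4 at -0.22 ± 0.12 as labelled (limma unadjusted p = 0.0227 and 0.0431, adjusted p = 1). Once preparation 3 was turned they stood at -0.034 ± 0.48 and -0.16 ± 0.22. The 4 genes with an unadjusted p under 0.05 in that reading were Tcl1 (0.27 ± 0.067), Dppa3 (0.21 ± 0.023), Ctcf (0.13 ± 0.030) and Bcl2l10 (-0.18 ± 0.047), with limma adjusted p from 0.61 to 0.668. As labelled the same 4 stood at 0.14 ± 0.30, 0.087 ± 0.24, 0.033 ± 0.16 and -0.054 ± 0.22. Whether the RNA of these genes came from the oocyte or was made by the embryo was not measured. As labelled, the medians of the 5 lists ran from -0.047 to 0.033, against 0.0062 over all rows. Once turned they ran from -0.041 to 0.0095, against 0.0045.

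Other cells of the oviduct and follicle, blood and sperm were read through their markers, as were the parts of the embryo. limma called 0 of these genes over 3 preparations, and as labelled 0 had an unadjusted p under 0.05. Once preparation 3 was turned, 4 of the 8 inner cell mass genes measured had one, against 7.29% of rows, and at most 1 gene of each other list. Values in brackets are as labelled and then turned, for the 2 genes of each list with the smallest p as labelled.

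Cumulus and granulosa markers (10 of 16 measured) had medians of 0.012 as labelled and 0.032 turned, led by Kitl (0.51 ± 0.61, and -0.28 ± 0.80) and Nr5a2 (0.12 ± 0.15, and 0.14 ± 0.13). Oviduct markers (5 of 9) had medians of -0.078 and -0.051, led by Muc1 (-0.14 ± 0.036, and -0.024 ± 0.18) and Wfdc2 (-0.078 ± 0.10, and -0.062 ± 0.12). Blood cell markers (4 of 11) had medians of -0.025 and -0.020, led by Hbb-b2 (0.17 ± 0.29, and 0.14 ± 0.32) and Lyz2 (-0.080 ± 0.17, and -0.077 ± 0.17). The 1 sperm gene of 8 measured, Oaz3, stood at 0.20 ± 0.21 and -0.044 ± 0.32. Each of 3 lists had 1 gene with an unadjusted p under 0.05 once turned. These were Ptgs2 (cumulus list, 0.30 ± 0.11), Krt7 (oviduct list, -0.34 ± 0.045) and Ptprc (blood cell list, -0.34 ± 0.091). Their limma adjusted p were 0.638, 0.569 and 0.6, and their means as labelled 0.028, -0.11 and -0.12. The pools were whole embryos, and which cells held the RNA of any gene in these lists was not measured.

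For the embryo's own parts, trophectoderm genes (9 of 12 measured) had medians of -0.029 and 0.074, with Cdx2 (-0.24 ± 0.26, and -0.22 ± 0.29) and Eomes (0.27 ± 0.47, and 0.20 ± 0.52). Krt18 stood at 0.28 ± 0.14 once turned (limma unadjusted p = 0.0236, adjusted p = 0.646) and at 0.075 ± 0.36 as labelled. Primitive endoderm genes (8 of 10) had medians of -0.0048 and 0.057, with Lama1 (0.19 ± 0.20 in both readings) and Gata6 (0.089 ± 0.068, and 0.026 ± 0.12).

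Inner cell mass genes (8 of 10) had medians of 0.021 as labelled and 0.097 turned. Nanog, a pluripotency factor, stood at 0.13 ± 0.45 as labelled and at 0.39 ± 0.018 once turned (limma unadjusted p = 0.00133, adjusted p = 0.536 over 3 preparations). Klf4 stood at 0.11 ± 0.28 and 0.25 ± 0.039, Sox2 at 0.033 ± 0.36 and 0.28 ± 0.098, and Tdgf1 at 0.051 ± 0.14 and 0.13 ± 0.024 (limma unadjusted p once turned of 0.00692, 0.0125 and 0.0439; adjusted p of 0.606, 0.633 and 0.668). Each of the 4 was positive in preparations 1 and 2 and negative in the preparation labelled 3, a pattern that a small p once turned favours. The other 4 were nearer to 0 once turned: Utf1 at 0.068, Fgf4 at 0.0615, Esrrb at 0.014 and Zfp42 at -0.0215. Esrrb was negative in preparation 1, and Zfp42 had the opposite signs in all 3. The 6-array fit with preparation 3 turned called 1 gene of the cell type lists, Nanog (limma adjusted p = 0.0393), against 0.21% of rows. That fit also rests on 3 preparations, since the 2 arrays of each hold the same RNA. The part of these cell types in the members' ratios was not tested.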

How the data were processed

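Per the labels, whole-embryo RNA was amplified linearly, labelled with Cy3 or Cy5 and hybridised in pairs. Per the series' design text, scans were read with Feature Extraction 7.5 and arrays combined with Luminator. The authors deposited 1 log10 ratio per feature and array (21446 features), whose base, direction and centring are not stated; log10 was taken from the limits at -2 and 2, and Cy5 over Cy3 from the sex genes of preparations 1 and 2. Array medians ran from 0 to 0.00223. Values were multiplied by 3.32 to give log2, and probes of a gene were averaged. Symbols came from the platform annotation, updated by gene number (11782 of 11813 matched). The 2 arrays of a preparation were averaged, and 3 means were tested against 0 with limma 3.58.1 (R 4.3.3), adjusted over all rows at 0.05. The fit was tested on simulated data. Every member is named, and of each other list the 2 genes with the smallest p as labelled. Genes with a limma unadjusted p under 0.05 once turned, and the remaining inner cell mass genes, were named after their values were seen. Members and lists were chosen with earlier results of these data known. Alternatives were the turned or left-out preparation, blocks, single orientations, centring, a filter on zeros and limits, and single probes. The number of arrays limits the precision.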

Additional observations from a re-analysis of the deposited data

Results flagged for a closer look

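The 2 dye orientations gave opposite signs for Zp1 on every array, positive where the female RNA carried Cy5 and negative where it carried Cy3, which corresponds to a mean Cy5 over Cy3 ratio of 0.68 on the log2 scale (limma adjusted p = 0.0906 over 3 preparations). The mean of the 2 probes of Gdf9 had the same split of signs, though neither probe alone did, with a mean Cy5 over Cy3 ratio of 0.27 (limma adjusted p = 0.136). The difference between orientations did not pass the adjusted test for either gene. Of all rows, 13.9% read above 0 in Cy5 over Cy3 on all 6 arrays.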

How the results depend on the processing

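No member passed limma's test for sex under any alternative run (lowest adjusted p = 0.0765, highest 1). The sign of several means depended on the setting, and the cause was not tested. With preparation 3 turned, Bmp15 moved to 0.0065, Padi6 to 0.080, Zar1 to 0.052 and Zp2 to -0.10, with the same values in the 6-array fit with replicate block and dye term. With female RNA in Cy5 alone, Bmp15 stood at 0.042, Zp1 at 0.61 and Zp2 at -0.17, and with it in Cy3 alone Btg4 stood at 0.22, Nlrp5 at -0.048, Ooep at -0.013 and Padi6 at 0.069; single orientations keep the dye effect. The other probe of Bmp15 alone gave 0.014. Leaving out 1 preparation gave -0.012 to 0.11 for Nlrp5, -0.050 to 0.11 for Ooep, -0.053 to 0.058 for Padi6, -0.0018 to 0.14 for Zp3, -0.064 to 0.048 for Gdf9, -0.30 to -0.017 for Zar1, 0.047 to 0.30 for Zp2, -0.16 to -0.018 for Zp1, -0.042 to -0.0051 for Bmp15 and -0.16 to -0.10 for Btg4. With preparation 3 turned as well, an alternative added after seeing the data, leaving out preparation 1 or 2 gave 0.033 and -0.0042 for Bmp15, 0.072 and 0.11 for Padi6, 0.25 and -0.037 for Zar1, and -0.093 and -0.25 for Zp2. Over all rows, limma called 628 for sex with female RNA in Cy3 alone and 39 with the replicate block, dye term and preparation 3 turned, against 0 as reported and 0 without any 1 preparation. It called 446 for dye with arrays centred on their median, against 0. The block changed no call of a member. The filter on zeros and limits, centring and the median of probes left the members' signs as they were.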

Other observations

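Genes of genome activation at the 2-cell stage, when maternal mRNA is lost, were measured for 3 of 22 listed. Zscan4f stood at 2.62 in preparation 1, -0.48 in preparation 2 and 0.20 in the preparation labelled 3, and Zscan4a at 1.32, -0.023 and 0.14. Eif1a, an initiation factor gene, stood at 0.016, 0.036 and -0.067. limma called none of the 3 (adjusted p = 1 for each as labelled; 0 at an unadjusted p under 0.05 as labelled and 0 once turned). The probes of Zscan4a and Zscan4f can share signal, since the Zscan4 genes are near-identical copies. Maternal members in preparation 1 ran from -0.34 to 0.21.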
